A study of Arabidopsis thaliana with 12 samples.

Results

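The genes of the CBF cold regulon described here were 10 loci of Arabidopsis thaliana, of 33602 in the tables: the transcription factor genes CBF1 (AT4G25490), CBF2 (AT4G25470) and CBF3 (AT4G25480), and 7 cold-responsive genes, COR15A (AT2G42540), COR15B (AT2G42530), KIN1 (AT5G15960), KIN2 (AT5G15970), COR47 (AT1G20440), RD29A (AT5G52310) and GOLS3 (AT1G09350). They were chosen by name, from textbook knowledge of cold acclimation and with earlier results from these same libraries known, so their differences between genotypes are given as a description with no p-value. Messenger RNA was sequenced from 12 libraries, 3 for each of 4 genotypes in the Columbia (Col-0) background. WT carried no mutation. The jazQ line carried T-DNA insertions in the 5 jasmonate repressor genes JAZ1, JAZ3, JAZ4, JAZ9 and JAZ10, the phyB line carried the phyB-9 allele of the red-light photoreceptor gene PHYB, and jazQ phyB carried the insertions together with phyB-9. Every library pooled about 200 whole seedlings, roots included, harvested 8 d after sowing on agar with sucrose at 21 °C under continuous light, and no library came from cold-treated plants. The levels below are therefore those of unstressed seedlings.

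CBF1, CBF2 and CBF3 are AP2-domain activators that lie in tandem on chromosome 4 and are induced within minutes of cold. They bind the CRT/DRE element, with the core CCGAC, in the promoters of COR genes, whose products protect membranes, chloroplasts and proteins during freezing. The bHLH factor ICE1 and the calmodulin-binding CAMTA factors activate the CBF genes, JAZ1 and JAZ4 are reported to bind and repress ICE1, the circadian clock gates the CBF genes, and the phyB-regulated factors PIF4 and PIF7 are reported to repress them.

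The sequence upstream of the genes was read from the RefSeq TAIR10.1 genome as the 300 bases before the annotated gene start. These starts can differ from those of the TAIR10 models that the authors counted on. A motif found or missing below therefore holds for these windows only, which need not be the proximal promoters of the counted models. A search on both strands for the CRT/DRE core CCGAC found it in 4 of the 10 genes, COR15A, COR15B, RD29A and GOLS3, against 13.9% of 27443 protein-coding genes. The core of the abscisic acid response element, ACGTG, was found in 6 of 10, against 25.6% of all. The G-box CACGTG, which holds an ACGTG on each strand, was found in CBF2, COR15A and GOLS3 (7.09% of all), the evening element core AATATCT in CBF1, CBF2, CBF3 and KIN1 (11.8% of all), and the CAMTA core CGCGT in CBF2 alone of the 10 (7.89% of all). The window of COR15B lies over the neighbouring COR15A gene, which is annotated 7 bp away. The 5 windows below show RD29A and COR15A, which hold several CCGAC motifs, the KIN neighbours, which hold none, and CBF2, the most abundant CBF gene, with CCGAC or ACGTG on either strand in capitals. RD29A has 3 CCGAC motifs, COR15A has 2 and a G-box, CBF2 has a G-box, and the neighbours KIN1 and KIN2 have 1 ACGTG each and no CCGAC within these letters.
RD29A, chr5:21240417-21240716, plus strand: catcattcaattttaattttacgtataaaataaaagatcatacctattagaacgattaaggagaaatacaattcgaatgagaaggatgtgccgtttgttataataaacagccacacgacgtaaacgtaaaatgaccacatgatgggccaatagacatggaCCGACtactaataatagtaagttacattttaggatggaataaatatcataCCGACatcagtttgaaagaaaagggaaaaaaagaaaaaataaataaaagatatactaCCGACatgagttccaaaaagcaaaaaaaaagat
COR15A, chr2:17712331-17712630, minus strand: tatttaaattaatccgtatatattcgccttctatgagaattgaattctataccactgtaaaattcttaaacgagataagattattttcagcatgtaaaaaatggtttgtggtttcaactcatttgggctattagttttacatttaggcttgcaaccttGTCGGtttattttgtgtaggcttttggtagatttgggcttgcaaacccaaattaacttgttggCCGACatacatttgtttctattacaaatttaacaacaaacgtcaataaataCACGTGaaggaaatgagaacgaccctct
KIN1, chr5:5209417-5209716, plus strand: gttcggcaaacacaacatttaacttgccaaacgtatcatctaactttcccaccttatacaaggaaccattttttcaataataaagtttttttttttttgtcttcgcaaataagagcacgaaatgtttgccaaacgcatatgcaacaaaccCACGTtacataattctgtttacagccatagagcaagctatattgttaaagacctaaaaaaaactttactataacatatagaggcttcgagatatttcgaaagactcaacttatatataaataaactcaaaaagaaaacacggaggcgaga
KIN2, chr5:5211419-5211718, plus strand: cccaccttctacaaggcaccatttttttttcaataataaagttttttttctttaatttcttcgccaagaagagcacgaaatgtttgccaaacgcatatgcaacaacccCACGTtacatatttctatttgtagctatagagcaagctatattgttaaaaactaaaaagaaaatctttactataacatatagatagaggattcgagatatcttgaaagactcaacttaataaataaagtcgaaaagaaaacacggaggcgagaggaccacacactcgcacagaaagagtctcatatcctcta
CBF2, chr4:13016236-13016535, minus strand: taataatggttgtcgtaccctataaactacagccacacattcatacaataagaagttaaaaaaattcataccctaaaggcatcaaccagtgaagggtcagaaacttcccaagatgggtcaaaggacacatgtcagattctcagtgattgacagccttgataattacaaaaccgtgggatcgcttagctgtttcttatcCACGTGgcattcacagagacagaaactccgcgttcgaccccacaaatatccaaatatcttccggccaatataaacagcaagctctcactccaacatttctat

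The labels were first read against the mutated genes, as TMM-scaled CPM, the counts of a gene relative to its library's scaled total. JAZ1 stood at 46.4 to 60.8 CPM in WT and at 4.78 to 7.17 in the 6 libraries with the jazQ insertions, and JAZ4 at 5.05 to 6.47 in WT and 2.03 to 3.26 in those 6. JAZ3 and JAZ10 reads were far more abundant with the insertions (513 to 695 and 200 to 274 CPM) than in WT (12.4 to 16.6 and 3.41 to 4.06), and JAZ9 did not differ between jazQ and WT, so a count over these loci does not measure an intact transcript. PHYB was at 78.9 to 88 CPM in WT, 54 to 57.4 in phyB and 50.7 to 56 in jazQ phyB. The libraries held 12750074 to 26347184 counts. Shoot genes summed to 22191 to 25408 CPM in WT but to 14475 to 15185 in phyB and 16335 to 20638 in jazQ phyB, and root genes to 60.9 to 72.1 CPM in WT, 77.5 to 87.4 in phyB and 104 to 107 in jazQ phyB. Seed genes, 3 of 6 of them with enough counts to test, summed to 7.74, 31.2 and 65.2 CPM in the phyB libraries and to at most 1.69 in any other. In pooled whole seedlings, fewer cells of a type and less RNA per cell cannot be told apart.

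In these unstressed seedlings the members covered a wide range of abundance. Per transcript length, as the mean of the 12 libraries as TPM, RSEM's length-scaled abundance, the order was COR47 (416), KIN2 (120), RD29A (19.7), KIN1 (11.3), CBF2 (4.83), COR15B (4.33), COR15A (2.29), CBF1 (1.6), CBF3 (0.544) and GOLS3 (0.501). The lowest COR47 level, 352 TPM, was above the highest KIN2 level, 273 TPM, and the lowest KIN2 level, 52.7, was above the highest RD29A level, 25.4. Each of the other neighbours in this order overlapped over the libraries, KIN1 most widely, from 1.5 to 36 TPM. COR47, which encodes a dehydrin, was in the 99th percentile of all genes by mean TPM, whereas the CBF genes had few reads: 21 to 111 counts a library for CBF2, 7 to 30 for CBF1 and 2 to 14 for CBF3. CBF3 missed the filter on low counts, which left 9 members among 20957 genes tested, and GOLS3, with 4 to 14 counts, passed it narrowly.

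**Figure D1:**
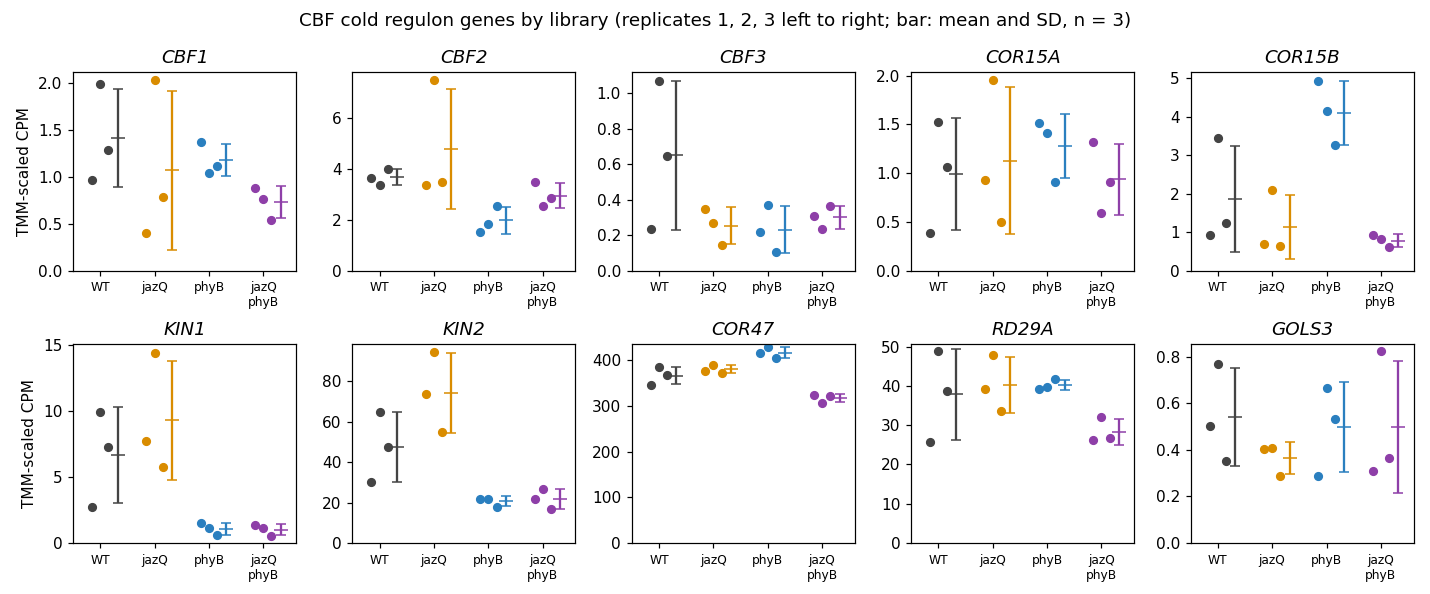
TMM-scaled CPM of the 10 genes in every library, by genotype, each panel on its own linear axis from 0, with replicates 1 to 3 from left to right and the mean and SD of the 3 libraries beside them. KIN1 and KIN2 are low in all 6 libraries that carry phyB-9, COR15B is highest on average in phyB and COR47 is lowest in jazQ phyB.

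The KIN genes set the phyB-9 libraries apart most clearly. KIN1 and KIN2 encode small hydrophilic proteins that accumulate with cold and abscisic acid, and the genes are neighbours on chromosome 5. KIN1 was at 2.75, 9.96 and 7.29 CPM in WT replicates 1 to 3, and correspondingly at 7.76, 14.4 and 5.78 in the jazQ libraries, 1.52, 1.11 and 0.587 with phyB-9 alone and 1.36, 1.12 and 0.544 in the jazQ phyB combination. All 6 libraries with phyB-9 lay below all 6 without it. The fitted difference was 6.16-fold lower in phyB than in WT (log2 fold change -2.62, SE 0.54, n = 3 against 3) and 8.93-fold lower in jazQ phyB than in jazQ (-3.16, SE 0.50). KIN2 was at 30, 64.7 and 47.6 CPM in WT, at 73.9, 94.6 and 54.9 in the jazQ libraries, 22, 22 and 17.8 with phyB-9 alone and 21.7, 26.9 and 16.8 in the jazQ phyB combination. These values again did not overlap between libraries with and without phyB-9, though WT replicate 1 stood close to the highest jazQ phyB library. KIN2 was 2.28-fold lower in phyB than in WT (log2 fold change -1.19, SE 0.26) and 3.42-fold lower in jazQ phyB than in jazQ (-1.77, SE 0.25). Between jazQ phyB and phyB the KIN1 and KIN2 differences were 0.01 (SE 0.66) and 0.09 (SE 0.27) on the log2 scale, and between jazQ and WT they were 0.54 (SE 0.40) and 0.67 (SE 0.24).

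The count ratio of the KIN genes also stood apart in the phyB-9 libraries, as a description with no test. The ratio of KIN2 to KIN1 counts within a library was 6.49 to 10.9 in the WT and jazQ libraries and 14.5 to 30.9 in the phyB and jazQ phyB libraries. KIN1 had 9 to 213 counts a library. The highest ratio, 30.9, was in jazQ phyB replicate 3, which had the lowest KIN1 level, so the high ratios rest on few KIN1 reads. Of the 50-base windows along the TAIR10.1 transcripts, 1.28% of those of KIN1 and 1.43% of those of KIN2 occur in the other gene, the share within which 50-base reads cannot be told apart. The sum of KIN1 and KIN2, which does not depend on how such reads were divided, was 54.1 ± 20.9 CPM in WT, 83.8 ± 24.2 in jazQ, 21.7 ± 2.88 in phyB and 22.8 ± 5.32 in jazQ phyB (SD, n = 3). The shoot gene sum was also lower in both phyB-9 genotypes than in WT (ranges above), and was 23993 to 26142 CPM in jazQ. Unlike the KIN sum, it was higher in jazQ phyB than in phyB without overlap. Its part in the KIN differences was not tested.

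**Figure D2:**
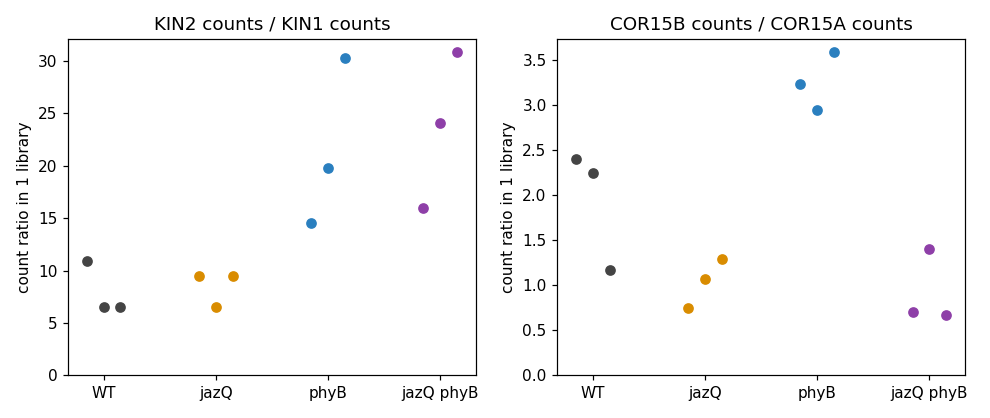
Ratio of counts between neighbouring genes within each library, on linear axes from 0, for KIN2 over KIN1 (left) and COR15B over COR15A (right), with replicates 1 to 3 from left to right. The KIN ratio lies between 14.5 and 30.9 in the 6 libraries with phyB-9 and at 10.9 or less in the others, and the COR15 ratio is between 2.95 and 3.59 in phyB and at 2.4 or less elsewhere.

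COR15B followed another pattern. COR15A and COR15B encode chloroplast stroma proteins that protect membranes during freezing. COR15B was at 4.91, 4.15 and 3.25 CPM in phyB, against 0.93, 3.45 and 1.23 in WT, 0.695, 2.1 and 0.643 in the jazQ libraries and 0.922, 0.823 and 0.605 in jazQ phyB. The phyB libraries overlapped WT only through WT replicate 2, and did not overlap jazQ phyB. COR15B was 5.09-fold lower in jazQ phyB than in phyB (log2 fold change -2.35, SE 0.47), while phyB against WT gave 1.23 (SE 0.43) and the interaction, the effect of phyB-9 with the jazQ insertions minus its effect without them, gave -1.75 (SE 0.71). With 1 library left out, phyB against WT ranged over 0.85 to 1.93 and was called without WT replicate 2, and the interaction ranged over -2.44 to -0.99. Its neighbour COR15A, at 7 to 30 counts a library, ranged from 0.907 to 1.52 CPM in phyB and from 0.588 to 1.32 in jazQ phyB, which overlapped. The COR15B to COR15A ratio was accordingly 2.95 to 3.59 in phyB and 0.667 to 2.4 in the other 9 libraries. It too rests on few reads, with COR15B at 9 to 68 counts a library.

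Several other values were read beside COR15B. The seed genes CRA1 (cruciferin A) and CRU3 (cruciferin C), seed storage proteins, were at 3.63 to 31.5 and 3.2 to 28.7 CPM in phyB and at most 0.843 and 0.46 in the other libraries. The part of seed transcripts in the COR15B difference was not tested. In the TAIR10.1 annotation COR15B also overlaps AT2G42520 on the opposite strand over 27.3% of its 50-base windows, and the counting used no strand. The counting used TAIR10 models, which can differ in length, so whether the counted models overlap is not known. AT2G42520 was at 58.8 to 63.6 CPM in phyB and 48.1 to 51.5 in jazQ phyB, a log2 fold change of -0.29 (SE 0.07, adjusted p = 0.00697 by edgeR's quasi-likelihood test). It was at 53.7 to 61.4 CPM in WT and 53 to 59.7 in jazQ, which overlapped phyB. For phyB against WT it gave 0.08 (SE 0.07, adjusted p = 0.396 by the same test). In the TAIR10.1 annotation CBF3 overlaps AT4G07385 on the opposite strand, a locus that was not among those counted.

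COR47 showed small differences with little spread. It was at 345, 384 and 368 CPM in WT, at 376, 390 and 373 in the jazQ libraries, 415, 429 and 405 with phyB-9 alone and 324, 307 and 322 in the jazQ phyB combination. The phyB libraries were the highest, the jazQ phyB libraries the lowest, and neither overlapped any other genotype. COR47 was 1.31-fold lower in jazQ phyB than in phyB (log2 fold change -0.39, SE 0.06) and 1.19-fold lower than in jazQ (-0.26, SE 0.06). The effect of phyB-9 was 0.19 (SE 0.06) without the jazQ insertions and -0.26 with them, an interaction of -0.44 (SE 0.08).

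RD29A, which encodes a hydrophilic protein induced by cold, drought and salt and whose promoter was used to define the DRE, was at 25.8, 48.9 and 38.6 CPM in WT, at 39.3, 47.8 and 33.6 in the jazQ libraries, 39.2, 39.8 and 41.7 with phyB-9 alone and 26.1, 32 and 26.8 in the jazQ phyB combination. Its jazQ phyB libraries lay below every jazQ and phyB library, but WT replicate 1 was lower still. The log2 fold change of jazQ phyB was -0.51 (SE 0.18) against jazQ, -0.51 (SE 0.18) against phyB and -0.40 (SE 0.18) against WT, and none of these passed the test with all libraries. Without WT replicate 1 the differences from WT (-0.63 to -0.18 over the 12 fits with 1 library left out) and from phyB (-0.60 to -0.45) were called, and the latter was also called with only the 2 genotypes in the fit. GOLS3, the gene of a cold-induced galactinol synthase of raffinose synthesis, was at 0.286 to 0.823 CPM over the 12 libraries with every genotype overlapping. It was called in no comparison, at 4 to 14 counts a library, and what change could be detected at this level was not tested.

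The CBF genes themselves were low in every genotype. CBF2, the most abundant, was at 3.64, 3.37 and 4 CPM in WT, at 3.36, 7.51 and 3.5 in the jazQ libraries, 1.52, 1.85 and 2.56 with phyB-9 alone and 3.47, 2.53 and 2.84 in the jazQ phyB combination. Its phyB libraries did not overlap WT, with a log2 fold change of -0.87 (SE 0.31) that did not pass the test, except without jazQ replicate 2 (-1.13 to -0.71 over the 12 fits with 1 library left out). That jazQ library held more CBF2 than any other library. CBF1 was at 0.969, 1.99 and 1.29 CPM in WT and 0.879, 0.764 and 0.544 in jazQ phyB, with a log2 fold change of -0.87 (SE 0.45) that did not pass either, and its jazQ values spread from 0.405 to 2.03. CBF3, read in every library but with 70 counts over all 12, was at 0.107 to 1.07 CPM and was not tested. Summed, CBF1, CBF2 and CBF3 were at 5.74 ± 0.815 CPM in WT, 6.12 ± 3.2 in jazQ, 3.38 ± 0.358 in phyB and 3.98 ± 0.599 in jazQ phyB (SD, n = 3). Of the 50-base windows of CBF1, CBF2 and CBF3, 2.48%, 3.95% and 0.596% are shared with another CBF gene.

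**Figure D3:**
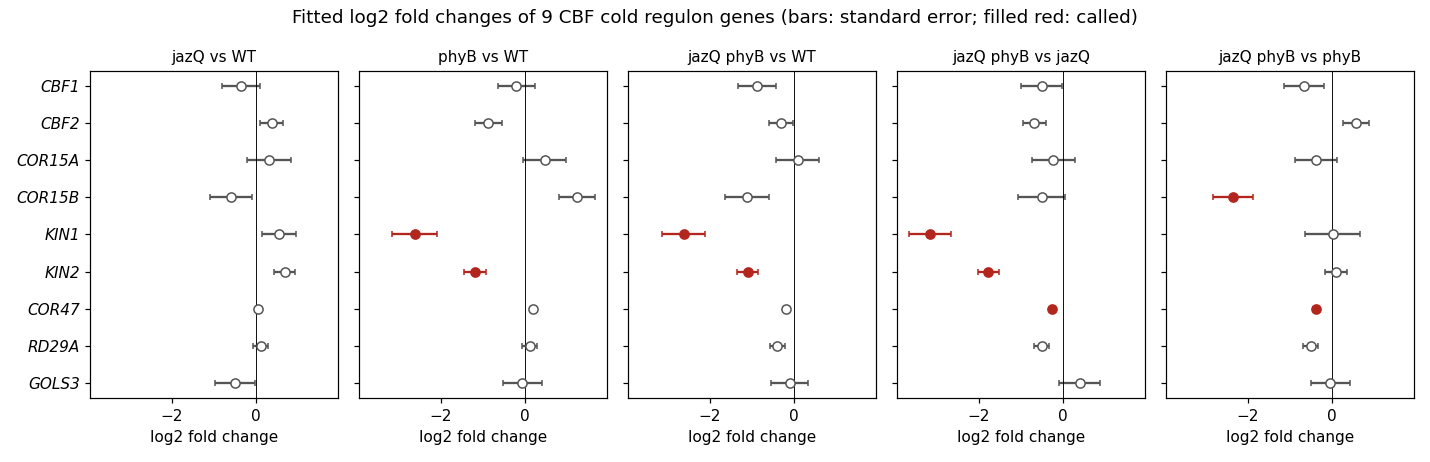
Fitted log2 fold changes of the 9 members with enough counts, in 5 comparisons on 1 linear axis, with bars for the standard error and filled red points for genes called at an adjusted p below 0.01. KIN1 and KIN2 are the red points of both comparisons with WT that involve phyB-9, and COR15B is red only against phyB.

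A gene was called where its Benjamini-Hochberg adjusted p in edgeR's quasi-likelihood test over all 20957 genes was below 0.01. No member was called between jazQ and WT, where 1.54% of all genes were called (1 of the 9 had an unadjusted p below 0.05, and DESeq2 called none). Between phyB and WT 2 of 9 were called, both lower, KIN1 and KIN2, against 11.8% of all genes, and the same 2 were called lower in jazQ phyB than in WT, against 9.77%. Between jazQ phyB and jazQ 3 of 9 were called lower, KIN1, KIN2 and COR47 (6.79% of all genes), and between jazQ phyB and phyB 2 of 9, COR15B and COR47 (11.8%). COR47 was the 1 member called for the interaction (3.61%). The comparisons with WT share its libraries, and those that involve jazQ phyB share its libraries. The median log2 fold change of the 9 was -0.07 in phyB, -0.40 in jazQ phyB and 0.11 in jazQ against WT, where the medians of all genes were 0.01, 0.00 and -0.01. Since the members were chosen with such results known, nothing is read from these shares. With 1 library left out in turn, the KIN1 and KIN2 calls against jazQ and the COR47 call against phyB were kept in all 12 fits. KIN1 in phyB against WT was no longer called without WT replicate 2, phyB replicate 2 or phyB replicate 3 (log2 fold changes over the 12 fits of -3.05 to -2.23), and in jazQ phyB against WT without WT replicate 2 or any jazQ phyB replicate (-3.04 to -2.22). KIN2 in phyB against WT was not called without WT replicate 2 or 3 or any phyB replicate (-1.45 to -0.91), and in jazQ phyB against WT it was called only without WT replicate 1, jazQ replicate 2 or jazQ replicate 3 (-1.36 to -0.82). COR15B against phyB was not called without phyB replicate 1 or 2 or any jazQ phyB replicate (-2.50 to -2.20), and COR47 against jazQ was called only in the 3 fits without a WT replicate (-0.27 to -0.23). Nor was COR47 called against jazQ with upper-quartile normalization, with only the 2 genotypes in the fit, with limma on TPM at either pseudocount or with the replicate block (3 of 8 alternatives kept the call, -0.26 to -0.15). KIN2 was not called against WT in phyB with limma, nor in jazQ phyB with limma or with only the 2 genotypes.

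The members also varied between libraries of 1 genotype. WT replicate 2 held the highest level within its genotype for 9 of the 10 genes and WT replicate 1 the lowest for 8. In jazQ, replicate 2 was the highest for 9 of 10 and replicate 3 the lowest for 8. The phyB and jazQ phyB libraries showed less of this, where the largest such count was 6 of 10. Taken as deviations of log2 CPM from the mean of the genotype, KIN1 and KIN2 moved together with r = 0.91 over the 12 libraries, KIN2 and RD29A with 0.90, COR15B and KIN2 with 0.85, and CBF1 and COR15B with 0.85, while CBF2 and KIN2 gave 0.16. These are descriptions, since libraries can share plates, depth and composition and the values of low genes rest on few reads.

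**Figure D4:**
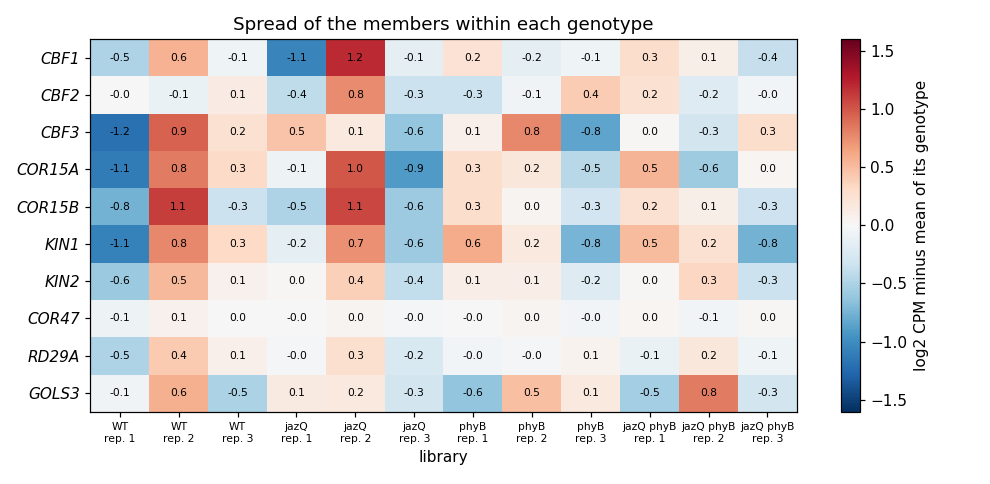
Deviation of each gene's log2 CPM from the mean of its genotype, by library, with red above and blue below the mean. Replicate 2 of WT and of jazQ is red for nearly all genes, and replicate 1 of WT is blue for most, while COR47 deviates by about 0.1 or less.

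By its pattern over the 12 libraries, the gene most like the mean standardised profile of the tested members, among 19822 genes with a mean of at least 1 CPM, was AT1G75900 (r = 0.95), followed by AT5G09410 (EICBP.B, also named CAMTA1, r = 0.88), AT2G20290 (XIG, r = 0.85), AT1G73470 (r = 0.84) and AT4G23020 (TRM11, r = 0.84). In phyB against WT the adjusted p of these 5 genes by edgeR was 0.277 or more, and CAMTA1 changed by -0.06 (adjusted p = 0.563). As the highest of 19822 correlations over 12 libraries, these are a description. RD29A was the member closest to the mean profile of the members (r = 0.91) and GOLS3 the farthest (r = 0.26). Seen gene by gene, KIN1 was most like AT1G13650 (r = 0.98) and COR47 had the clock gene TOC1 among its 5 closest (r = 0.93).

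The known regulators of the CBF genes were next examined as a list of 24, all tested. This list and those below were drawn from general knowledge of the pathway, but with earlier results from these same libraries known. Their adjusted p-values are thus not independent of those results, and their counts beside the share of all genes are a description. In phyB 8 fell and 1 rose against WT (11.8% of all genes were called). The morning clock genes CCA1 and LHY, whose MYB-type products bind the CBF promoters, fell by 1.08 (SE 0.09, adjusted p = 3.86e-06 by edgeR) and 1.34 (SE 0.08, adjusted p = 2.86e-07) on the log2 scale, as did their relatives RVE8 (-1.04) and RVE4 (-0.47). PIF4 (-0.61, adjusted p = 0.00829) and PIF7 (-0.87, adjusted p = 0.000356), the zinc finger gene ZAT12 (-1.07) and the ICE1 kinase gene OST1 (-0.26) also fell, and the evening clock gene TOC1 rose by 0.38. The PIF values here and below are of RNA. The paper describes phyB as a repressor of the PIF factors, and their protein and activity were not measured in these libraries. ICE1, at 78.9 to 86.5 CPM in WT and 69.8 to 74.4 in phyB, did not pass (-0.20, adjusted p = 0.0722), nor did CAMTA3 (-0.08, adjusted p = 0.682). With 1 library left out, the calls of OST1, PIF4 and ZAT12 were lost in 8, 7 and 2 of the 12 fits, and with the other alternatives the adjusted p of OST1 and PIF4 reached 0.135 and 0.0293, while the CCA1, LHY, RVE4, RVE8, PIF7 and TOC1 calls were kept in every fit.

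In jazQ phyB 6 of the 24 fell and 2 rose against WT, where 9.77% of all genes were called. PIF4 (-0.88) and PIF7 (-0.96) fell again, ZAT12 by 0.85, and the clock genes PRR5, PRR7 and TOC1, repressors that act in the CBF pathway through the clock, by 1.16, 0.50 and 0.58, while LHY rose by 0.37 (adjusted p = 0.00475 by edgeR) and BZR1, a brassinosteroid factor that binds CBF promoters, by 0.28 (adjusted p = 0.0072). The LHY, BZR1 and ZAT12 calls were lost in 5, 10 and 7 of the 12 fits with 1 library left out. Against phyB, CCA1, LHY, RVE4 and RVE8 were higher and PRR5, PRR7 and TOC1 lower in jazQ phyB (7 of 24, against 11.8% of all genes). LHY stood at 108 to 118 CPM in phyB, 250 to 323 in WT, 227 to 243 in jazQ and 360 to 374 in jazQ phyB. Between jazQ and WT none of the 24 passed edgeR's test, 8 had an unadjusted p below 0.05, and DESeq2 called 2. Continuous light and a harvest at 1 age leave the phase of the clock in each genotype unknown.

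**Figure D5:**
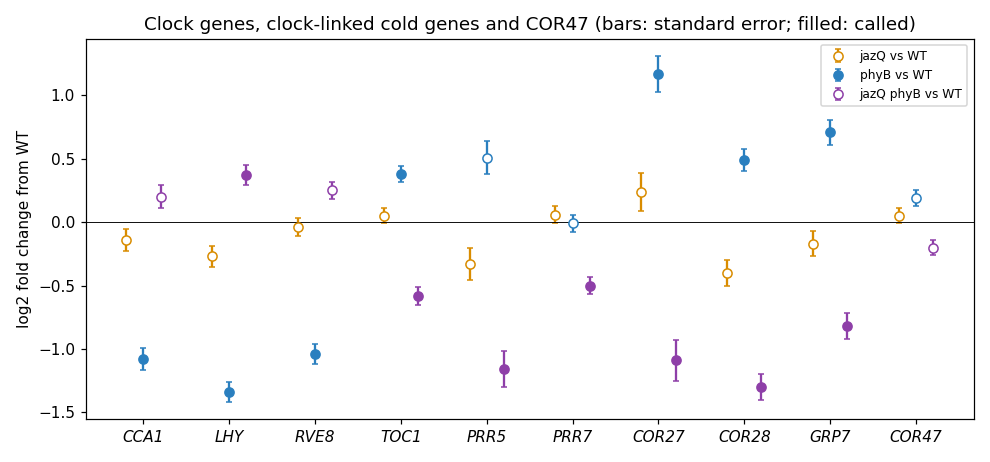
Log2 fold changes from WT of 6 clock genes, 3 cold-responsive genes and COR47 in jazQ, phyB and jazQ phyB, with bars for the standard error and filled points for genes called at an adjusted p below 0.01. CCA1, LHY and RVE8 lie below 0 in phyB and above 0 in jazQ phyB, and TOC1, COR27, COR28, GRP7 and COR47 lie the other way.

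A second list held 24 other cold-responsive genes, all tested. In phyB 4 rose and 6 fell, where 11.8% of all genes were called, and in jazQ phyB 9 fell against WT and the other 15 did not pass, where 9.77% were called. COR27 and COR28, cold-induced genes that also respond to the clock and to blue light, showed the widest contrast. COR27 was at 13.7, 14.2 and 12.9 CPM in WT, at 14.6, 17.1 and 16.5 in the jazQ libraries, 28.1, 31.6 and 32.1 with phyB-9 alone and 4.3, 7.93 and 7.19 in the jazQ phyB combination. The phyB and jazQ phyB libraries thus lay on opposite sides of WT, with log2 fold changes of 1.17 (SE 0.14, adjusted p = 6.46e-05 by edgeR) and -1.09 (SE 0.16, adjusted p = 0.00036). COR28 rose by 0.49 in phyB and fell by 1.3 in jazQ phyB, and GRP7, a clock-controlled RNA-binding protein gene induced by cold, rose by 0.71 and fell by 0.82. COR413IM1, a chloroplast membrane protein gene, rose by 1.04 in phyB (adjusted p = 0.00356 by edgeR), at 29.7 to 33 CPM against 11.4 to 19.8 in WT, a call that was lost without WT replicate 1 or any phyB replicate (adjusted p up to 0.0154). The COR28 call in phyB was lost without phyB replicate 3 (adjusted p = 0.0113).

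The remaining cold-responsive genes that passed mostly fell. FAD8, a cold-induced plastid desaturase gene, fell by 0.57 in phyB and 0.65 in jazQ phyB. LTI30 (a dehydrin, -0.45), RS5 (raffinose synthase, -0.38), ELIP2 (early light-induced protein, -1.35), BAM3 (beta-amylase, -0.47) and P5CS2 (proline synthesis, -0.35) fell in phyB, and COR413-PM1 (-0.65), COR413IM2 (-0.43), ZAT10 (-1.44), RCI2A (-0.46) and ELIP1 (-1.05) fell in jazQ phyB. The FAD8 and COR413-PM1 calls were kept under every alternative, and those of RS5 and P5CS2 in all 12 fits without 1 library but not with limma on TPM (adjusted p up to 0.0297 and 0.0158). The calls of LTI30, ELIP2, BAM3, COR413IM2, ZAT10, RCI2A and ELIP1 were each lost without at least 1 library, with adjusted p up to 0.0286 for BAM3. The dehydrin gene ERD10, a close relative of COR47, did not pass in any comparison with WT (adjusted p = 0.261, 0.669 and 0.16 by edgeR in jazQ, phyB and jazQ phyB). RAV1, an AP2 and B3 domain factor gene, was the 1 called in jazQ, lower by 1.01 (adjusted p = 0.00651 by edgeR), and this call was lost in 7 of the 12 fits without 1 library, with adjusted p up to 0.0573 under the other alternatives.

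AP2 factors related to the CBF proteins and the abscisic acid response genes were the last lists. Of 6 relatives (CBF4, DDF1, DDF2, DREB2A, DREB2B and DREB2C), only the DREB2 genes, 3 in all, had enough counts. CBF4, DDF1 and DDF2 were not tested, so the results here are of the DREB2 genes alone. DREB2C was at 2.52, 2.61 and 2.06 CPM in WT, at 1.45, 1.69 and 1.86 in the jazQ libraries, 3.1, 3.49 and 3.15 with phyB-9 alone and 0.703, 0.881 and 0.605 in the jazQ phyB combination. It was lowest in jazQ phyB without overlap, by a log2 fold change of -1.71 against WT (SE 0.22, adjusted p = 0.000108 by edgeR) and -2.14 against phyB (SE 0.21, adjusted p = 1.09e-05). The jazQ phyB libraries held only 16, 15 and 10 counts of DREB2C. DREB2A, a drought and heat factor, fell by 0.69 in jazQ phyB against WT, a call lost in 4 of the 12 fits with 1 library left out.

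Of 16 abscisic acid response genes 12 were tested. In phyB against WT 1 was called higher and 3 lower, where 11.8% of all genes were called. In jazQ phyB against phyB 3 were called higher, HAB1, HAI1 and ABF3, and 2 lower, RD29B and ABF4 (11.8% of all genes). The HAI1 and ABF4 calls were lost in 6 and 9 of the 12 fits with 1 library left out. RD29B, the neighbour of RD29A and a marker of abscisic acid, was at 1.09, 1.07 and 1.23 CPM in WT, at 1.1, 1.69 and 0.714 in the jazQ libraries, 5.19, 3.26 and 2.13 with phyB-9 alone and 0.703, 0.823 and 0.363 in the jazQ phyB combination. It rose in phyB by 1.62 (SE 0.35, adjusted p = 0.00439 by edgeR) and was lower in jazQ phyB than in phyB by 2.44 (SE 0.38, adjusted p = 0.000442), as COR15B was, while RD29A was not called in either comparison. The phyB call of RD29B was lost without any WT replicate and without phyB replicate 1 or 2, with adjusted p up to 0.0281. The jazQ phyB libraries held only 16, 14 and 6 counts of RD29B. The seed gene sum was 65.2, 31.2 and 7.74 CPM in phyB replicates 1 to 3, and its part in the RD29B difference was not tested. The phosphatase genes HAB1 (-0.40) and ABI2 (-0.42) and the factor gene ABF3 (-0.59) fell in phyB, and ABI1 was lower by 0.66 in jazQ and 0.70 in jazQ phyB. Of these calls, ABI2 and ABI1 in jazQ were each lost in 6 of the 12 fits with 1 library left out.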

How the data were processed

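RNA was sequenced as 50-base single-end reads. Per the labels, the authors mapped reads to TAIR10 gene models with RSEM 1.2.11, by their methods at its default settings, which use no strand, and deposited expected counts and TPM of 33602 genes in 12 libraries. All counts were whole numbers, and all 24 value columns were used (0 unused). The counts were tested in R 4.3.3 with edgeR 4.0.16 (TMM, filterByExpr with a minimum count of 10, quasi-likelihood tests, 4 genotypes in 1 fit, no block), with adjusted p below 0.01 as a call. SE is the log2 fold change over the root of F. Alternatives were DESeq2 1.42.0, limma 3.58.1 on log2(TPM + 1) or log2(TPM + 0.1), other filters and scalings, and left-out libraries, and the fit was tested on simulated data. At these totals (12750074 to 26347184), 3 counts are 0.116 to 0.23 CPM. The members and gene lists were chosen with earlier results of these data known. Named are all members, up to 6 called genes a list by change from WT (others after their values were seen), ICE1, CAMTA3, PIF4, PIF7, ERD10, RD29B, JAZ1, JAZ4 and PHYB, and the 5 genes most like the members by Pearson's r of log2 CPM. Sequence and gene models are from RefSeq TAIR10.1, since the tables give no coordinates.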

Additional observations from a re-analysis of the deposited data

Results flagged for a closer look

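For 13 genes of the lists the effect of phyB-9 differed between seedlings with and without the jazQ insertions, by the interaction term on the log2 scale (edgeR's quasi-likelihood test, adjusted p below 0.01, which 3.61% of all genes passed). Among the 24 regulators of the CBF genes the interaction was 1.41 for CCA1 (adjusted p = 2.55e-05), 1.97 for LHY (5.02e-07), 1.32 for RVE8 (9.34e-06), -1.34 for PRR5 (0.000876), -0.55 for PRR7 (0.00463) and -1.0 for TOC1 (2.55e-05). Among the 24 other cold-responsive genes it was -2.51 for COR27 (1.68e-05), -1.39 for COR28 (5.79e-05), -1.36 for GRP7 (6.42e-05) and -0.46 for ERD7 (0.00861). Of the 12 abscisic acid response genes tested HAB1 and ABF3 gave 0.59 (0.00234) and 0.69 (0.000627), and of the 3 tested AP2 factor genes related to the CBFs DREB2C gave -1.61 (0.00388). The ERD7 interaction was lost in 10 and that of PRR7 in 7 of the 12 fits that left out 1 library, with adjusted p up to 0.029 and 0.0171, and that of DREB2C without jazQ replicate 3, phyB replicate 2 or jazQ phyB replicate 1, with adjusted p up to 0.0155. COR47 gave -0.44, as a description, since it is a member, and was no longer called without phyB replicate 1, phyB replicate 2 or jazQ phyB replicate 1. The lists were also chosen with earlier results of these libraries known.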

How the results depend on the processing

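Counts of called genes over a list moved by more than 1.5 times as follows. Between jazQ and WT the regulators, 0 as reported, were 2 at adjusted p below 0.05 and with DESeq2, and 1 with no filter and with the replicate block. The other cold-responsive genes there, 1, were 4 at 0.05, 2 with DESeq2 and with no filter, and 0 with only the 2 genotypes and with limma on TPM + 1 or + 0.1. The abscisic acid genes there, 1, were 2 at 0.05 and with the block, and 0 with the 2 genotypes and with limma. Between phyB and WT, members went from 2 to 1 with at least 10 counts in every library (KIN1 then untested) and abscisic acid genes from 4 to 2 with limma at both pseudocounts. Between jazQ phyB and WT, members went from 2 to 1 with the 2 genotypes, with limma and with 10 counts in every library, regulators from 8 to 5 with the 2 genotypes, and abscisic acid genes from 1 to 5 at 0.05, 3 with DESeq2, and 2 with the 2 genotypes or no filter. Between jazQ phyB and jazQ, regulators went from 6 to 10 at 0.05 and abscisic acid genes from 1 to 0 with upper-quartile scaling, the 2 genotypes or limma. Between jazQ phyB and phyB, members went from 2 to 1 and abscisic acid genes from 5 to 3 with 10 counts in every library. For the interaction, 0.05 gave 7 cold-responsive genes in place of 4 and 5 abscisic acid genes in place of 2. Where the alternative tests fewer genes or samples or sets another threshold, that is how it differs, and otherwise the cause was not tested.

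With 1 library left out, the members called ranged over 0 to 3 for phyB and for jazQ phyB against WT, 2 to 3 against jazQ, 1 to 3 against phyB and 0 to 1 for the interaction. Regulators ranged over 0 to 3 for jazQ, 6 to 10 for phyB and 5 to 8 for jazQ phyB against WT, 4 to 7 against jazQ, and 5 to 6 for the interaction, and cold-responsive genes over 0 to 2, 6 to 11 and 5 to 11 against WT, 4 to 8 against jazQ, 7 to 9 against phyB and 3 to 5 for the interaction. Abscisic acid genes ranged over 0 to 1, 2 to 4 and 1 to 2 against WT, 0 to 1 against jazQ, 3 to 7 against phyB and 2 to 3 for the interaction.

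No called difference turned its direction under any of the alternatives run. Among the listed genes outside the members, differences that had not passed turned sign with limma on TPM + 1 and + 0.1 for CAMTA3 in phyB (0.07 and 0.08), ERD10 in phyB (0.08 in both), JAZ4 in phyB (0.02 in both), ICE1 in jazQ phyB (0.09 in both) and, at + 0.1, RD29B in jazQ (-0.02). With 1 library left out, differences of members that had not passed also turned sign, among them COR15B (-1.35 to 0.09) and COR15A (-0.31 to 0.73) between jazQ and WT, and CBF1 (-0.93 to 0.35) and COR15B (-0.79 to 0.24) between jazQ phyB and jazQ. Outside the members, ICE1 in jazQ then ranged over -0.12 to 0.01, PIF4 in jazQ over -0.17 to 0.14, RD29B in jazQ over -0.29 to 0.29, CAMTA3 in phyB over -0.21 to 0.12 and in jazQ phyB over -0.04 to 0.29, ERD10 in phyB over -0.25 to 0.04 and ICE1 in jazQ phyB over -0.09 to 0.01. The TPM scale moved the median of all genes by 0.14 and 0.15 in phyB against WT and by 0.10 and 0.11 in jazQ phyB against WT, and there COR47 was called higher in phyB than in WT, at 0.33, while KIN2 was no longer called, at -0.99 and -1.0, so the count of 2 members held KIN1 and COR47. Without jazQ replicate 2 the COR15B and CBF1 differences from WT in jazQ were -1.35 and -1.22. Over all tested genes the same-numbered libraries deviated little together (correlations of -0.13 to 0.22, 3 of 18 pairs over 0.1). The authors' methods place WT and mutant seedlings on the same plate, without saying which libraries shared a plate. The correlations cannot tell whether same-numbered libraries did, so their pairing is unknown. Among the members, replicate 2 was the highest for 9 of 10 genes in WT and for 9 of 10 in jazQ. The replicate block moved the counts given above. It ended the calls of COR47 against jazQ, OST1 in phyB (adjusted p = 0.0123 by edgeR) and BZR1 in jazQ phyB (0.012). It also ended those of LTI30, ABF4 and JAZ9 between jazQ phyB and phyB (0.0147 to 0.0164).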
